A study of Mus musculus with 8 samples.

Results

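The comparison described here sets the 4 second arrays of an 8-array study of mouse embryonic stem cells against its 4 first arrays. The titles of the 2 arrays of each group differ by a final letter r, and in the knockout without LIF also by Rex in place of Rex-1. The array with that letter is called the second array here, and nothing in the labels says what the letter stands for. The members were chosen by these titles alone, 4 arrays of 8 on each side, and were compared as 4 pairs, 1 in each group of cell line and culture condition. Differences are second minus first in log2 signal, so that 1 unit is a doubling.

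The wild-type cells were of the mouse line J1. The others were labelled Rex-1 KO (Rex-1-/-), in which the gene for the zinc finger protein Rex-1 (Zfp42) is said to be deleted. Both were grown as monolayers on gelatin in medium with fetal calf serum, with leukemia inhibitory factor (LIF) or for 12 hours without it. All 8 arrays share this culture, the J1 background and RNA extraction with TRIzol, and the labels do not say whether the knockout is 1 clone or several. The 2 arrays of a group are called biological replicates in the series text, without saying whether they came from separate cultures, so p-values measure only the spread between these arrays. For the knockout without LIF the description of cell growth names added LIF, and the titles were followed.

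Zfp42, the targeted gene, had a high signal on all 8 arrays. Its log2 signal was 14.17 and 14.51 on the first and second J1 arrays with LIF, 14.15 and 14.33 without LIF, 14.14 and 14.08 in the knockout-labelled cells with LIF and 14.06 and 14.03 without LIF. Every J1 array lay above every knockout-labelled array, but by a narrow margin and without the large loss of signal a deletion would give. The labels do not place its probe set inside or outside the deletion, and signal from outside it would check nothing, so these arrays are called knockout-labelled throughout. The median signal of the arrays ran from 114.2 to 119.0 on the first arrays and from 122.4 to 143.5 on the second, and the highest signal from 27962 to 36208 on the first arrays, with every second array above its pair. Of 9 defining markers of embryonic stem cells, 9 had a mean log2 signal of at least 8.

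Embryonic stem cells grown on gelatin hold their shape through actin filaments anchored at focal adhesions and at cadherin junctions. Actin also feeds back on transcription. MRTF cofactors are held by monomeric actin, and when actin assembles into filaments they enter the nucleus and act with serum response factor (SRF) at CArG boxes, short A- and T-rich motifs in promoters of genes for actin-binding proteins. YAP and TAZ, partners of the TEAD factors, respond to the same cytoskeletal tension and to cell contact.

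The array sets differed in genes of the cytoskeleton, of cell adhesion and of signalling to both, which were lower on the second arrays, while subunits of the respiratory chain and of the proteasome had medians slightly above that of all genes. Of 14892 probe sets with a mean log2 signal of at least 8, limma called 1079 lower on the second arrays, 7.25% of those tested, and 758 higher, 5.09%, at a Benjamini-Hochberg adjusted p under 0.05. With 1 probe set per gene, 633 of 8365 genes were called lower (7.57%) and 341 higher (4.08%), and the median difference over all genes was -0.02. By size alone, 212 probe sets (1.42%) were lower by at least 0.5 in every pair and 78 (0.524%) were higher by as much. When each array was centred on its median the split turned to 909 lower and 1194 higher. The counts depended on single pairs. Without the J1 pair with LIF limma called 0, although 3548 had an unadjusted p under 0.05. Without the knockout-labelled pair lacking LIF it called 4 lower and 0 higher, and without the knockout-labelled pair with LIF 318 lower and 134 higher. Without the J1 pair lacking LIF the counts were 979 and 608.

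The array set accounted for more of the variation than either factor of the study. Over the 14892 probe sets it took 39.4% of the variation across the 8 arrays, against 17.7% for genotype and 11.3% for LIF. The term for an array-set difference that depends on genotype took 12.8% and the one that depends on LIF 6.82%. The array set had the largest of the 7 shares at 6705 probe sets. The 4 pairs, which have no array in common, resembled each other to differing degrees. The Pearson correlation of their differences across the 14892 probe sets was 0.60 between the 2 J1 pairs and 0.64 between the 2 knockout-labelled pairs. It was 0.50 between the pairs with LIF, 0.34 between those without, 0.56 between J1 with LIF and knockout-labelled without, and 0.24 for the remaining combination. These values describe the probe sets, which are not independent of each other.

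**Figure D1:**
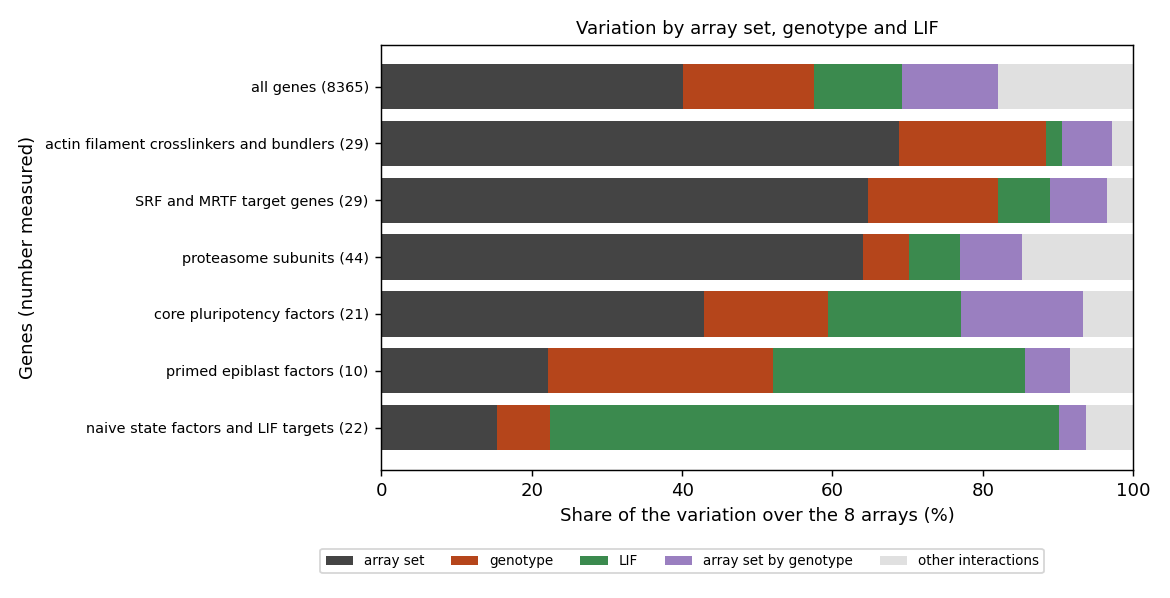
Share of the variation over the 8 arrays (horizontal axis, percent) taken by array set, genotype, LIF, the array set by genotype term and the other interactions, for all genes and 6 gene lists with the number of genes measured. Array set takes 68.9% for the actin crosslinkers and 15.4% for the naive state factors and LIF targets, where LIF takes 67.7%. The shares are sums of squares, so genes with large differences weigh most. Tagln, in the crosslinker and SRF lists, is such a gene, and its second arrays all read below a log2 signal of 8.

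The largest difference among the named genes was at Tagln, which encodes transgelin, an actin-binding protein of contractile cells. Its log2 signal was 12.24, 12.12, 9.26 and 9.45 on the first arrays of J1 with LIF, J1 without LIF, knockout-labelled with LIF and knockout-labelled without LIF, and 7.47, 6.32, 6.75 and 5.09 on the matching second arrays. All 4 first arrays lay above all 4 second arrays, and the first J1 arrays were the highest. The mean difference was -4.36, but all second arrays read below the log2 signal of 8 used as filter. Tagln passed that filter through its first arrays, so its size and call carry no weight as a test. Cald1, for caldesmon, which binds actin and tropomyosin, went from 12.01 to 9.10, 11.94 to 9.22, 10.38 to 9.39 and 10.56 to 9.99 in the same order of pairs, a mean of -1.80 (SE 0.41, limma adjusted p = 0.0411). Of its other probe sets 0 were called, with means of -1.38 and -0.50. Gsn, for the filament-severing protein gelsolin, differed by -2.24 (SE 0.43) with its other 2 probe sets also called lower, and Marcks, for a membrane-bound actin crosslinker, by -1.68 (SE 0.18) with its other 4 called lower. The second arrays of Gsn read below 8 at each probe set, except 8.05 at the one named in knockout-labelled cells with LIF. Little weight is therefore put on the tests of Gsn. The named probe set of Marcks also read below 8 on all second arrays, so its test carries no weight. At the Marcks probe set of highest signal the difference was -0.87 (SE 0.12), with second arrays at 9.61 to 10.39.

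Actin filament crosslinkers and bundlers were lower as a group. Of 29 measured genes, 12 were called lower (41.4%, beside 7.57% of all genes) and 0 higher. Of the 29, 26 had a negative value, and the median was -0.36 against -0.02 for all genes. The medians of the 4 pairs lay close together, from -0.39 to -0.33. Tpm1, a tropomyosin, differed by -1.25 (SE 0.21), Pdlim7, a LIM protein of stress fibres, by -1.10 (SE 0.12), and Csrp1, a LIM protein that binds actinin, by -1.08 (SE 0.22). The signal of Tpm1 went from 11.86 to 10.06 and from 11.97 to 10.31 in J1 cells with and without LIF, and from 10.44 to 9.47 and 10.42 to 9.85 in the knockout-labelled cells. Members of high signal had values of -0.21 for Lasp1, -0.13 for Cnn3 and 0.09 for Tpm3, and these probe sets were not called.

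Actg1 and Actb, the cytoplasmic actins, had values of 0.29 and 0.48 at their probe sets of highest signal, neither called (limma adjusted p = 0.115 and 0.0517), and a second probe set of Actb was called higher at 0.94 (SE 0.22, adjusted p = 0.0431). Among 13 actin isoforms and monomer regulators 2 were called lower (15.4%, beside 7.57% of all genes) and 0 higher. The 2 were Wdr1 (-0.57, SE 0.10) and Twf2 (-0.52, SE 0.10), which promote filament disassembly and bind monomers. The median of the 13 was -0.04, and 0.05 over those with a mean log2 signal of at least 10. Of 12 myosins and contractile regulators 3 were called lower (25%, beside 7.57% of all genes) and 0 higher. The 3 include the unconventional myosin Myo1c (-0.67, SE 0.14) and the myosin phosphatase subunit Ppp1r12a (-0.58, SE 0.10). The heavy chain Myh9 had a value of -0.06.

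**Figure D2:**
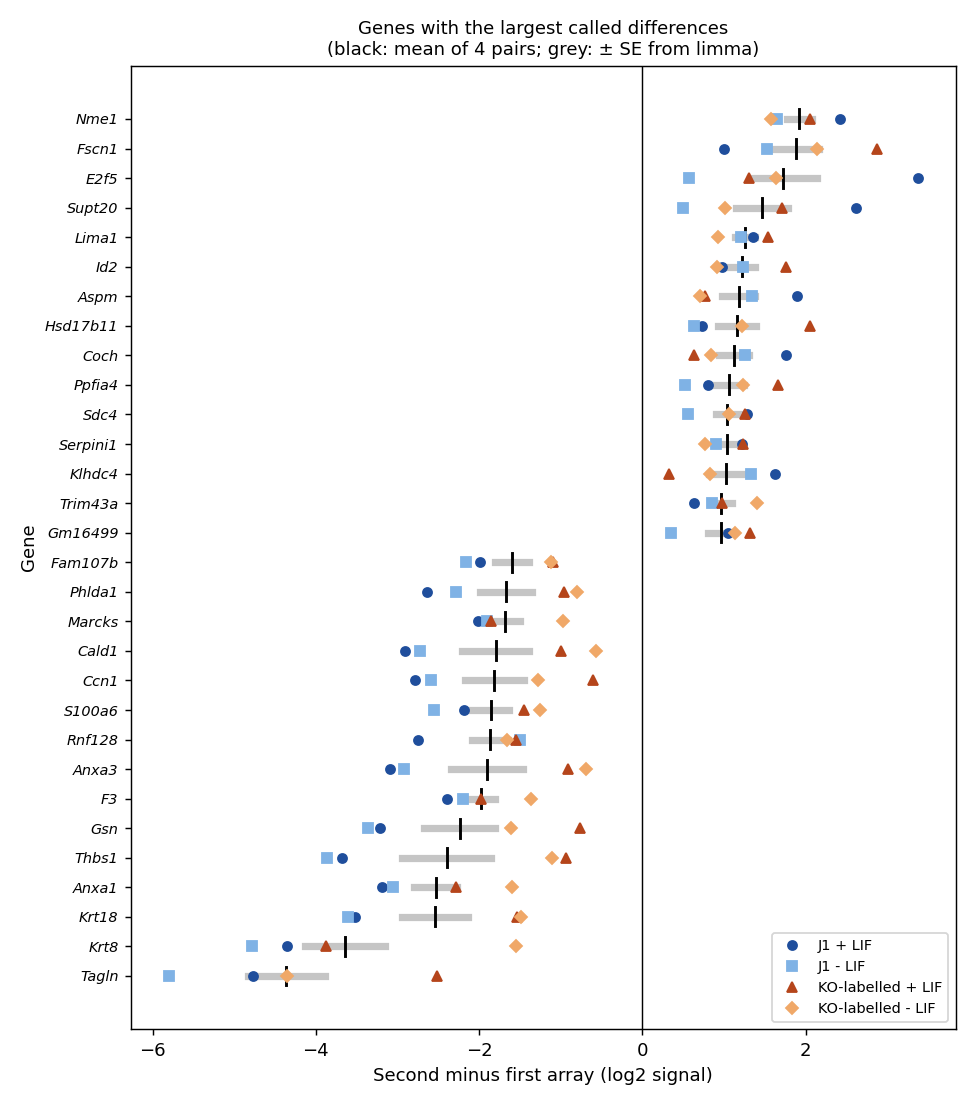
Second minus first difference (log2 signal, horizontal axis) of the 30 named genes in each of the 4 pairs (symbols), with the mean of the pairs (black line) and its SE from limma (grey bar). For the 15 lower genes the differences of the J1 pairs (circles and squares) lie farther from 0 on average than those of the knockout-labelled pairs (triangles and diamonds); Tagln reaches -5.80 in J1 cells without LIF.

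SRF and MRTF target genes had a median of -0.62 over 29 measured genes. Of these, 13 were called lower (44.8%, beside 7.57% of all genes), 26 had a negative value and 1, Lima1, was called higher. The list shares 10 genes with the crosslinkers, Tagln and Tpm1 among them. Tagln is counted as called in both lists, though its call carries no weight because its second arrays all lay below the filter of 8. Ccn1, a secreted matricellular protein, differed by -1.81 (SE 0.36), from 11.07 to 8.28 and 10.996 to 8.41 in the J1 pairs and from 9.35 to 8.75 and 9.58 to 8.30 in the knockout-labelled pairs. Ccn2, of the same family, differed by -1.20 (SE 0.13). Cnn2, a calponin that binds actin filaments, differed by -0.93 (SE 0.11), from 11.83 to 10.79, 11.86 to 10.67, 11.03 to 10.34 and 11.13 to 10.34. The second arrays of Cnn2 all lay below the first. Fhl1, a LIM protein of muscle and stress fibres, differed by -0.62 (SE 0.10), from 10.23 to 9.55, 10.23 to 9.73, 10.69 to 9.83 and 10.61 to 10.15. Lima1, an actin crosslinker also called EPLIN, went the other way, from 8.48 to 10.12, 8.98 to 10.08, 8.14 to 8.78 and 8.68 to 9.30 (1.00, SE 0.18, limma adjusted p = 0.0274). It was also called higher at a probe set whose first arrays all read below 8 (1.26). At its remaining probe set the value was 0.10, not called. There the J1 pairs had 0.63 and 0.22 and the knockout-labelled pairs -0.19 and -0.25.

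The promoters of these last 3 genes are shown because each holds a CArG box, marked in capitals. At the probe sets of highest signal their transcripts differed in opposite directions. The windows are from RefSeq on GRCm38.p6 and hold 300 bases around the start of the gene, read on its own strand. Cnn2 is at chr10:79988350-79988649 on the plus strand with the box at position -56 from the gene start, Fhl1 at chrX:56779433-56779732 on the plus strand with the box at -102, and Lima1 at chr15:99820100-99820399 on the minus strand with the box at -47.
Cnn2: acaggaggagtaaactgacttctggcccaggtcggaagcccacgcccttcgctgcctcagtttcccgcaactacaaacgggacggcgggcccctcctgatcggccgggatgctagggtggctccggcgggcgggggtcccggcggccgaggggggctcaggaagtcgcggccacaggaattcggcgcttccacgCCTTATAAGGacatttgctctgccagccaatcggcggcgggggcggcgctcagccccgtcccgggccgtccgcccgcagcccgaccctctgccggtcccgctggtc
Fhl1: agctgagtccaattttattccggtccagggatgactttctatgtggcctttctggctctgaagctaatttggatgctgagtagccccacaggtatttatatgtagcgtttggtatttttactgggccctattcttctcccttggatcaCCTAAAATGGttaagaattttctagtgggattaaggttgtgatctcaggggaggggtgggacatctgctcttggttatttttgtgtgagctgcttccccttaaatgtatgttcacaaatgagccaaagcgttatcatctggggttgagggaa
Lima1: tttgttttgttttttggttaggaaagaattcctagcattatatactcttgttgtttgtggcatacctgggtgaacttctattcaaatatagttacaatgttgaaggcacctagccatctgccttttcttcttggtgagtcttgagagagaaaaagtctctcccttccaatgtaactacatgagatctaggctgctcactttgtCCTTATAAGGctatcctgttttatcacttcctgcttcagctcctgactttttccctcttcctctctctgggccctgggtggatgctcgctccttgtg
The CArG box was searched on both strands. It was found in 535 of all 32851 promoter windows (1.63%), in 107 of the 6893 windows of tested genes (1.55%) and in 11 of the 513 windows of genes called lower (2.14%). Of the 24 measured genes of the SRF and MRTF list with a window, 7 had a box (29.2%), a list drawn up from known targets of the factor. The other 4 of these, Actg1, Myl9, Srf and Vcl, were not called. A match is a description of the sequence and not a bound site.

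Intermediate filaments of simple epithelia were among the genes with the largest differences. Krt18, the type I keratin that pairs with Krt8, had a log2 signal of 12.82 and 12.76 on the first J1 arrays with and without LIF and 10.63 and 10.51 on the first knockout-labelled arrays. On the second arrays it was 9.30, 9.15, 9.09 and 9.01. The second arrays thus lay within a narrow range, below every first array, and the mean difference was -2.54 (SE 0.41, limma adjusted p = 0.0229). Krt8 was called lower at 3 probe sets, by -3.64 (SE 0.49) at the one with the largest difference. In the list of 19 microtubule and intermediate filament genes 6 were called lower (31.6%, beside 7.57% of all genes) and 1 higher. The median of the 19 was -0.16. Vim, the intermediate filament protein of mesenchymal cells, differed by -1.27 (SE 0.18) and Lmna, the A-type lamin, by -1.04 (SE 0.24). The destabiliser of microtubules Stmn1 was called higher (0.41, SE 0.10). Tubb5 and Tuba1a, tubulins of high signal, had values of 0.34 and -0.24 and were not called.

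Adhesion genes were mostly lower. Of 17 focal adhesion components 4 were called lower (23.5%, beside 7.57% of all genes) and 0 higher. Of the 17, 16 had a negative value and the median was -0.48. The called genes were the scaffold Bcar1 (-0.73, SE 0.12), the filament-elongation factor Vasp (-0.66, SE 0.09), Fhl1 and Parvb (-0.55, SE 0.09), whereas the values of Vcl, for vinculin (-0.47), and Tln1, for talin (-0.48), did not pass. Of 16 genes of cadherins, catenins and tight junctions 5 were called lower (31.25%) and 1 higher, with a median of -0.29. Cdh2, for N-cadherin, went from 9.60 to 7.77, 9.51 to 7.77, 8.55 to 7.30 and 8.87 to 7.44, a mean of -1.56. The second arrays were all lower than the first and all below the filter of 8, so the size is a description. Desmoplakin, encoded by Dsp, differed by -1.16 (SE 0.21). Cdh1, for the E-cadherin of embryonic stem cells, had a value of -0.18 and was not called.

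Extracellular matrix genes differed mainly in the J1 pairs. Of 23 measured genes 5 were called lower (21.7%, beside 7.57% of all genes) and 1, the basement membrane protein Nid2, higher (0.38, SE 0.09). The median was -0.54 and -0.48 in the J1 pairs and within 0.07 of 0 in the knockout-labelled pairs, and this difference between lines was not tested for the list. Thbs1, for thrombospondin 1, which activates latent TGF-beta, had a signal of 10.23, 10.52, 8.12 and 8.18 on the first arrays and 6.54, 6.66, 7.18 and 7.07 on the second. The mean difference was -2.40, with all second arrays below the filter of 8, and no weight is put on its test. Col4a2, a chain of collagen IV, differed by -0.55 (SE 0.13), and Fn1, for fibronectin, had a value of 0.16.

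The summed signal of markers of fibroblasts, which serve as feeder cells for embryonic stem cells, was also highest on the first J1 arrays. The signal summed over 23 genes with a probe set was 22616 and 22851 on the first J1 arrays, 11158 and 10413 on the first knockout-labelled arrays and 7214 to 9409 on the second arrays. Of the 23 genes 5 had a mean log2 signal of at least 8, namely Lgals1, Acta2, Tagln, Col6a2 and Col1a2, and 1 of these 5, Tagln, was called. Lgals1, Acta2 and Tagln made up 85.3% and 84.7% of the sum on the first J1 arrays. Of the 23 markers 14 were lower on the second array in both J1 pairs and 5 were higher in both, and in each knockout-labelled pair 15 were lower. The collagen gene Col1a1 read 8.71 and 8.95 on the first J1 arrays against 4.24 to 6.83 on the 6 others, whereas Dcn went from 5.43 to 6.77 and from 4.63 to 6.72 in the J1 pairs and Lum from 5.71 to 6.06 and from 5.35 to 7.20. Pdgfrb, Dcn, Lum and Postn had mean log2 levels from 4.29 to 6.05. The summed signal of 14 trophoblast markers, which include Krt8 and Krt18, was 18082 and 16722 on the first J1 arrays, 9783 and 7795 on the first knockout-labelled arrays and 4182 to 5863 on the second arrays, while Cdx2 and Elf5 had mean levels of 5.78 and 5.40. Krt8 and Krt18 dominated this sum on the first J1 arrays, at log2 signals of 12.66 to 12.82 against at most 10.43 for the others. Of the 6 markers with a mean log2 signal of at least 8, these 2 alone were called. Tfap2c and Fgfr2 were higher on the second array in both J1 pairs, and Bmp4 and Ets2 were lower in both. The part of other cells in these differences was not tested, and in bulk RNA fewer cells of a type and less RNA per cell cannot be told apart.

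**Figure D3:**
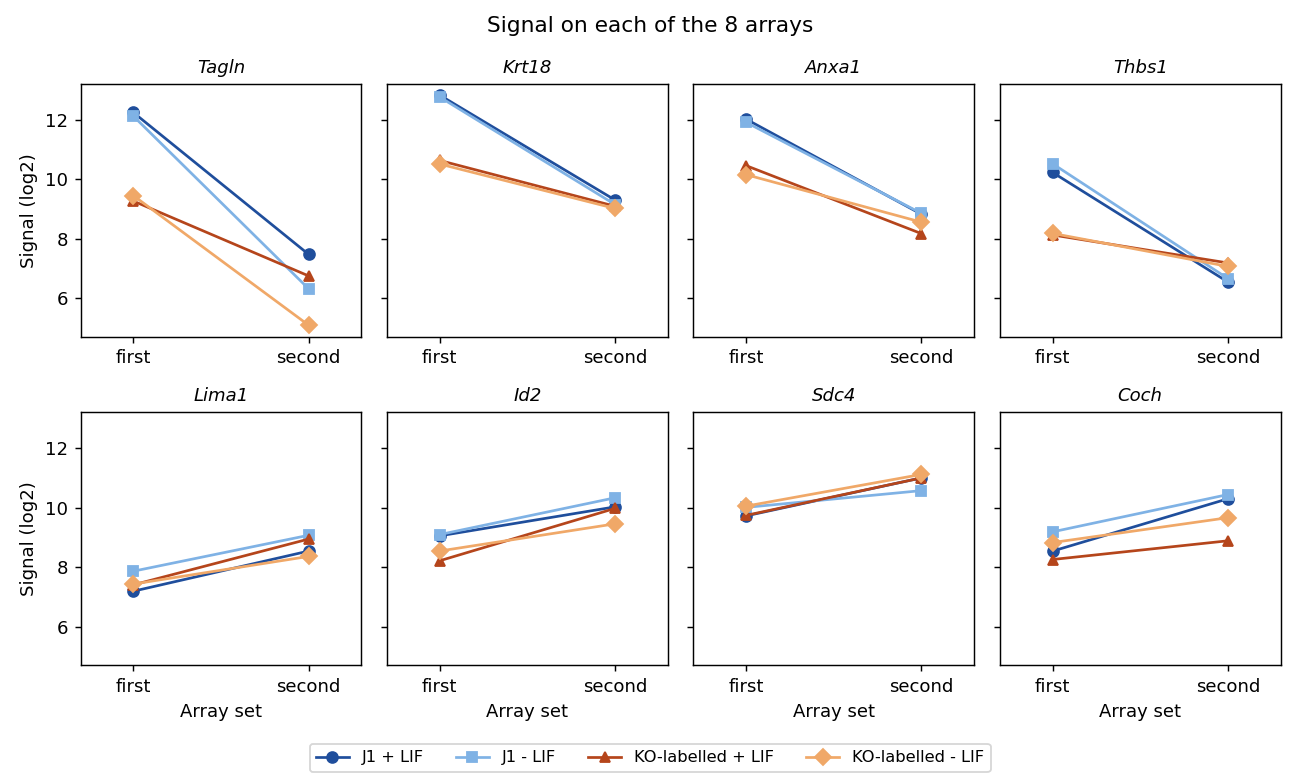
Log2 signal (vertical axis) of 8 named genes on the first and second array of each group, with a line joining the 2 arrays of a pair. Tagln, Krt18, Anxa1 and Thbs1 are highest on the 2 first J1 arrays and lower on all 4 second arrays, and Lima1, Id2, Sdc4 and Coch are higher on the second array of every pair. Lima1 is shown at its probe set of largest difference, not at the one of highest signal. All first arrays of that probe set read below 8.

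Further genes with large negative differences encode calcium-dependent membrane proteins, secreted factors and regulators. Anxa1, an annexin, had a signal of 12.01, 11.91, 10.45 and 10.15 on the first arrays and 8.82, 8.85, 8.17 and 8.55 on the second (-2.53, SE 0.26, limma adjusted p = 0.0155). Anxa3, of the same family, differed by -1.90 (SE 0.44) and S100a6, a calcium-binding protein, by -1.86 (SE 0.22). Phlda1 differed by -1.67 (SE 0.32), Fam107b by -1.59 (SE 0.21) and the ubiquitin ligase Rnf128 by -1.87 (SE 0.22). Of the 15 named lower genes 5, Tagln, Thbs1, Rnf128, Marcks and Fam107b, had all 4 second arrays below 8, and of the 15 named higher genes Lima1, Aspm and Ppfia4 had all 4 first arrays below 8 at the probe set named. Those 8 genes passed the filter through 1 array set. Among all called probe sets this held for 28 of 1079 lower and 27 of 758 higher. In all 15 named lower genes the mean difference was larger in the J1 pairs. Over all 1079 probe sets called lower this held for 43.3%, and the median difference was -0.54 in the J1 pairs and -0.59 in the knockout-labelled pairs.

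Target genes of the pathways that read cell shape, growth factors and serum were lower together. Of 12 YAP and TEAD targets 5 were called lower (41.7%, beside 7.57% of all genes) and 0 higher, with a median of -0.42. F3, for tissue factor, went from 10.45 to 8.06, 10.16 to 7.95, 8.53 to 6.56 and 8.98 to 7.62 (-1.98, SE 0.17, limma adjusted p = 0.0155), with no overlap between the array sets. Except in J1 cells with LIF its second arrays read below the filter of 8. F3 thus passed that filter mainly through its first arrays, and little weight is put on its test. Ccn1 and Ccn2 are on this list too, and Amotl1, an angiomotin that binds YAP, differed by -0.79 (SE 0.12). Of 10 TGF-beta and SMAD targets, with a median of -0.68, the lowest among the 24 lists described, 5 were called lower (50%) and 0 higher. They were Thbs1, Ccn2, Lefty1, a secreted inhibitor of Nodal (-0.81, SE 0.09), the feedback inhibitor Pmepa1 (-0.72, SE 0.17) and Tgfb1 itself (-0.64, SE 0.12). The call of Thbs1 carries no weight, since its second arrays all lay below the filter of 8. Smad7 had a value of -1.61 (SE 0.51) with 1 of 4 pairs of the opposite sign, and was not called. Nodal had a value of 0.16 at its probe set of higher signal, which was not called, and was called higher at the other (0.50, SE 0.12).

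Of 17 immediate early genes, which respond within minutes to serum or stress, 7 were called lower (41.2%, beside 7.57% of all genes) and 1 higher. Negative values were found for 16. The median of the 17 mean differences was -0.61, below the medians of the single pairs, -0.50 to -0.32. Dusp4, a phosphatase induced by ERK, went from 9.55 to 7.69, 9.92 to 8.03, 8.71 to 7.79 and 9.24 to 8.55 (-1.34, SE 0.23, limma adjusted p = 0.0249). Jun differed by -1.21 (SE 0.30), Rhob by -1.02 (SE 0.12) and Junb by -0.93 (SE 0.21). The growth inhibitor Btg2 was called higher (0.67, SE 0.11), and Ier2 had a value of -0.02. Genes of FGF and ERK signalling, the pathway that moves embryonic stem cells out of the naive state, had a median of -0.30. Among the 15 measured, 5 were called lower (33.3%) and 0 higher. They include the inhibitor Spred2 (-1.02, SE 0.12), Etv4 (-0.58, SE 0.14) and Myc (-0.61, SE 0.12). The rest are Dusp4 and Dusp6. Dusp4, Dusp6 and Myc are also among the 7 immediate early genes called lower, so the 2 lists are not independent.

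Genes of the amino acid response had a median of -0.32 over 26 measured genes. Of these, 4 were called lower (15.4%, beside 7.57% of all genes), 0 were called higher and 22 were negative. Cebpb, a transcription factor of this response, went from 9.74 to 7.81, 9.66 to 8.35, 9.50 to 7.75 and 9.37 to 8.34 (-1.50, SE 0.16, limma adjusted p = 0.0155). The proline synthesis enzyme Aldh18a1 differed by -0.78 (SE 0.16), the arginine transporter Slc7a1 by -0.70 (SE 0.11) and Trib3 by -0.67 (SE 0.14). Asns, for asparagine synthetase, and Psat1, of serine synthesis, had values of -0.07 and -0.02. The median of the pairs ran from -0.61 in the knockout-labelled cells with LIF to -0.09 in J1 cells without it.

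**Figure D4:**
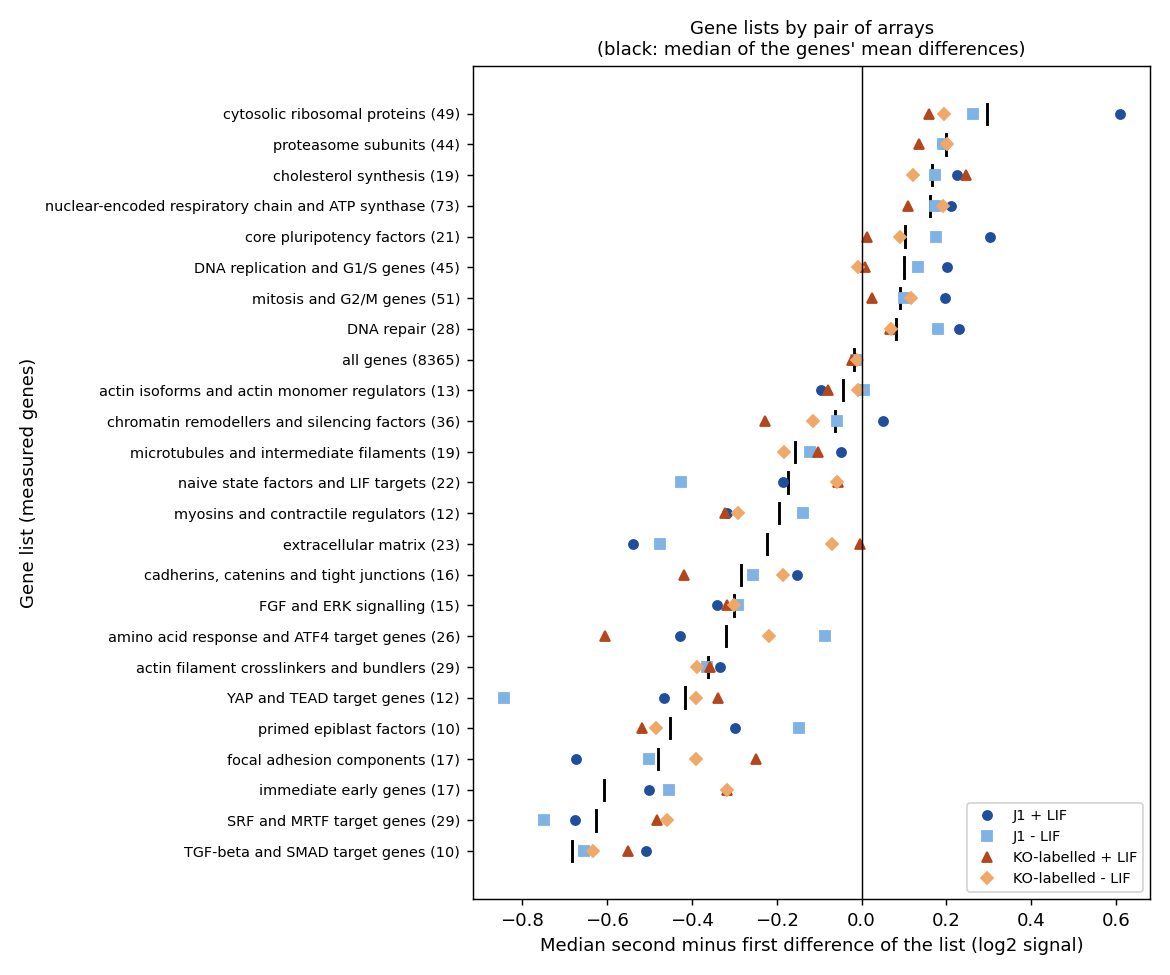
Median second minus first difference (log2 signal, horizontal axis) of 24 gene lists and of all genes in each of the 4 pairs (symbols), with the median of the genes' mean differences (black line) and the number of genes measured in parentheses. TGF-beta, SRF and immediate early genes lie lowest at -0.68, -0.62 and -0.61. Cytosolic ribosomal proteins lie highest at 0.29, a median that turns to -0.02 with quantile normalization.

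For many of the genes with the largest positive differences the probe sets of 1 gene disagreed. Nme1, a nucleoside diphosphate kinase, had the largest mean difference. Its signal went from 11.40 to 13.81, 11.98 to 13.62, 12.09 to 14.14 and 12.44 to 14.01 (1.92, SE 0.15, limma adjusted p = 0.0155), without overlap. Its other probe set, however, had a value of 0.34 (SE 0.09) and was not called. Fscn1, for the actin bundler fascin, differed by 1.88 (SE 0.28), and 1.39 and 0.46 at 2 other probe sets, of which the first was called, but had a value of -0.03 at the probe set with its highest signal. E2f5 differed by 1.72 (SE 0.41), with values of -0.40 and -0.11 at its other 2. Of the 15 named higher genes 10 had another probe set tested, and for 6 of these 0 others were called higher. Among the 15 named lower genes 7 had another, and for 2 of them 0 others were called lower.

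Among the remaining higher genes, Id2, an inhibitor of helix-loop-helix transcription factors, went from 9.05 to 10.03, 9.10 to 10.33, 8.21 to 9.97 and 8.54 to 9.46 (1.22, SE 0.15, limma adjusted p = 0.0172), with a value of 0.18 at its other probe set. Sdc4, for the heparan sulfate proteoglycan syndecan 4, went from 9.72 to 10.9999, 10.01 to 10.57, 9.74 to 10.9981 and 10.05 to 11.12 (1.04, SE 0.14, limma adjusted p = 0.0185). The second arrays of Sdc4 lay above all first arrays. Coch, for the secreted protein cochlin, differed by 1.12 (SE 0.19), Hsd17b11, a steroid dehydrogenase of lipid droplets, by 1.16 (SE 0.23), the neuronal serpin Serpini1 by 1.03 (SE 0.11) and Ppfia4 by 1.05 (SE 0.19). The brighter probe set of Hsd17b11 had a value of 0.42 and the other of Serpini1 0.01, neither called. First arrays of Ppfia4 all read below 8, so its test carries no weight. Supt20, Aspm, Klhdc4, Trim43a and Gm16499 complete the list, at 0.96 to 1.46. For Aspm, the spindle protein, 1 other probe set was called at 0.64 (SE 0.13), and the one of highest signal had a value of -0.18.

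Of 73 nuclear-encoded subunits of the respiratory chain and ATP synthase 9 were called higher (12.3%, beside 4.08% of all genes) and 0 lower. Positive values were found for 56, and the median was 0.16, with the pairs between 0.11 and 0.21. Atp5g1, a ring subunit of ATP synthase, went from 13.03 to 13.73, 13.13 to 13.55, 13.13 to 13.74 and 12.87 to 13.56 (0.60, SE 0.09, limma adjusted p = 0.0207). Sdha, of complex II, differed by 0.47 (SE 0.10), Cox8a, of complex IV, by 0.45 (SE 0.08) and Ndufa13, of complex I, by 0.43 (SE 0.09). ND5, a complex I subunit encoded by mitochondrial DNA and the 1 mitochondrial transcript measured, went from 13.07 to 14.0005, 13.04 to 13.99, 13.27 to 14.12 and 13.40 to 14.12 (0.86, SE 0.09, limma adjusted p = 0.0155). With quantile normalization 7 of the 73 were called higher and 1 lower, with a median of 0.11.

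Other lists of energy metabolism and protein turnover had medians of 0.10 for 20 genes of the tricarboxylic acid cycle, 0.01 for 17 of glycolysis and -0.03 for 17 ubiquitin ligases and ubiquitin genes, with 1 gene called higher in each and 1 lower in glycolysis. The gene called higher made up 5%, 5.88% and 5.88% of these lists, near the 4.08% of all genes. Proteasome subunits had a median difference of 0.20, with 34 of 44 positive, 4 called higher (9.09%, beside 4.08% of all genes) and 1 lower. The called subunits were Psma8 (0.66, SE 0.13), Psmd13 (0.44, SE 0.10), Psmd4 (0.42, SE 0.09) and Psma4 (0.39, SE 0.08), and the activator subunit Psme1 was lower (-0.48, SE 0.10). Of 49 cytosolic ribosomal proteins 6 were called higher (12.2%, beside 4.08% of all genes) and 1 lower. The median of the 49 was 0.29 and turned to -0.02, with 1 called in each direction, under quantile normalization. Rpl27a differed by 0.72 (SE 0.13) and Rps2 by 0.54 (SE 0.11). Most of these genes have strong signals, and strong signals were higher on the second arrays as a whole. The median difference was within 0.03 of 0 at mean log2 signals of 8 to 13, then 0.08 from 13 to 14 and 0.30 at 14 and above, where it was 0.59 in J1 cells with LIF and 0.18 to 0.25 in the other pairs. At 14 and above limma called 14.7% of the 273 probe sets higher and 0% lower. After quantile normalization the median differences of these ranges all lay within 0.02 of 0. Among control probe sets the signal for the 3′ end of Gapdh was higher on the second array in 4 of 4 pairs, and its 3′ minus 5′ difference was lower in 4 of 4, by 0.06 to 0.16. The hybridisation controls were higher on the second array in 3 of 4 pairs. The 18S rRNA controls differed by 0.50 and 0.001 in the J1 pairs with and without LIF. In the knockout-labelled pairs with and without LIF the 18S rRNA controls differed by -1.09 and -1.44. The part of all these controls in the differences was not tested.

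**Figure D5:**
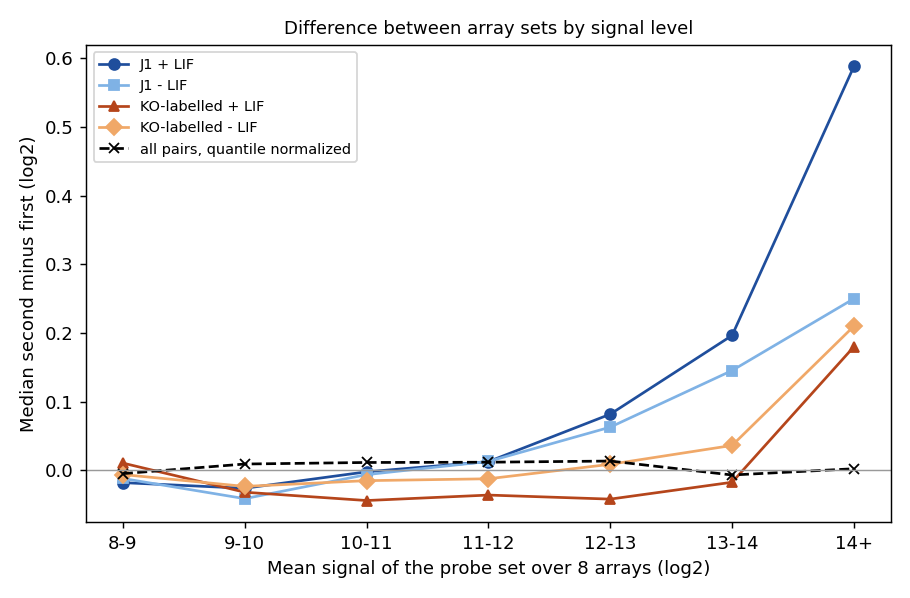
Median second minus first difference (log2 signal, vertical axis) of probe sets grouped by their mean log2 signal over the 8 arrays (horizontal axis), for each pair and, dashed, for the mean of the pairs after quantile normalization. The lines lie near 0 below 12 and rise at 14 and above, to 0.59 in J1 cells with LIF.

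Genes of the undifferentiated state differed in both directions. Of 21 core pluripotency factors 4 were called higher (19.05%, beside 4.08% of all genes) and 1 lower, with a median of 0.10. Nr5a2, a nuclear receptor that drives Pou5f1, differed by 0.72 (SE 0.12), Fbxo15 by 0.65 (SE 0.14), Dppa5a by 0.44 (SE 0.10) and Nanog by 0.40 (SE 0.09), and Nr0b1, a nuclear receptor expressed in embryonic stem cells, by -0.45 (SE 0.11). Nanog went from 12.61 to 13.04, 12.30 to 12.80, 12.99 to 13.24 and 12.66 to 13.07. The values of Pou5f1 (0.10) and Sox2 (0.02) did not pass. Of 22 naive state factors and LIF targets 5 were called lower (22.7%, beside 7.57% of all genes) and 1 higher, with a median of -0.17. Klf5 differed by -1.08 (SE 0.15), the kinase Pim1 by -0.76 (SE 0.11) and Icam1 by -0.70 (SE 0.12). In this list LIF took 67.7% of the variation and array set 15.4%. Of 10 factors of the primed epiblast 3 were called lower (30.0%), among them Foxd3 (-0.56, SE 0.09), and 0 higher, with a median of -0.45. Otx2, of the same list, had a value of 0.66 and was not called.

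Cell cycle and repair genes leaned slightly toward higher values, for replication in the J1 pairs only. The pair medians for replication were 0.20 and 0.13 in J1 cells with and without LIF and 0.007 and -0.008 in the knockout-labelled cells. In the same order they were 0.20, 0.10, 0.03 and 0.12 for mitosis and 0.23, 0.18, 0.07 and 0.07 for repair. Of 45 genes of DNA replication and the G1/S transition 4 were called higher and 0 lower, with a median of 0.10, led by E2f1 (0.51, SE 0.09) and Cdc45 (0.46, SE 0.09). Of 51 genes of mitosis 5 were called higher, with Kif11 (0.45, SE 0.11) first, and 1, the centrosomal kinase Nek2, lower (-0.52, SE 0.08), with a median of 0.09. Of 28 DNA repair genes 4 were called higher and 0 lower, among them Atm (0.66, SE 0.11) and Rad54l (0.52, SE 0.10), with a median of 0.08. Of 19 genes of cholesterol synthesis 2 were called higher, Dhcr7 (0.40, SE 0.10) and Nsdhl (0.36, SE 0.09), and 0 lower, with a median of 0.16. Among 36 chromatin remodellers and silencing factors 7 were called lower (19.4%, beside 7.57% of all genes) and 0 higher, and the median was -0.06. They include the BAF ATPase Smarca4 (-0.54, SE 0.09), the remodelling ATPase Ino80 (-0.54, SE 0.12), the remodelling complex subunit Arid2 (-0.50, SE 0.10) and the histone methyltransferase Ehmt2 (-0.47, SE 0.08). The genes called higher made up 8.89% of the replication list, 9.80% of the mitosis list, 14.3% of the repair list and 10.5% of the cholesterol list, beside 4.08% of all genes. Across all 66 lists, 52 had at least 10 measured genes, and 31 of these had a median within 0.15 of 0, 9 a median under -0.3 and 6 a median above 0.15.

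The size of the array-set difference was compared between the genotypes. By limma 2 of 14892 probe sets passed, 0.0134%, while 1980 had an unadjusted p under 0.05. Krt8 at its probe set of highest signal differed between array sets by -4.11 in J1 cells and -1.16 in the knockout-labelled cells, a difference of 2.95 (SE 0.16, limma adjusted p = 0.0286). Its signal went from 12.70 to 8.58 and 12.66 to 8.56 in the J1 pairs and from 10.64 to 9.53 and 10.70 to 9.48 in the knockout-labelled pairs. At this probe set the order of the cell lines was thus opposite on the 2 array sets. J1 was above the knockout-labelled cells on the first arrays and below them on the second. At the other 2 probe sets of Krt8 the second arrays of the lines overlapped. They read 8.70 and 8.79 in J1 against 8.80 and 8.43, and 8.20 and 7.66 in J1 against 6.11 and 8.08. Neither was called in this comparison (limma adjusted p = 0.0994 and 0.359). Thbs1 was the other gene that passed, with -3.77 and -1.02, a difference of 2.74. Its second arrays all lay below the filter of 8, so no order of the lines is read from them and its test carries no weight. The 3 probe sets of smallest p in the other direction were Rhox6 (-1.68, SE 0.17), Tfap2c (-1.56, SE 0.17) and Aass (-1.46, SE 0.16), none called, each higher on the second arrays in both J1 pairs and lower in both knockout-labelled pairs. With quantile normalization limma called 0, although 2002 had an unadjusted p under 0.05, and with a variance prior that follows signal 94 and 50.

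For the same comparison between cultures with and without LIF, 0 of 14892 passed in limma, 0%. An unadjusted p under 0.05 was reached by 463, and the smallest adjusted p was 0.9998. In the 10 alternative settings run limma also called 0, with 162 to 2178 at an unadjusted p under 0.05. The probe sets of smallest p included the membrane protein Mpzl2, which was lower by 1.52 and 1.54 in the pairs with LIF and by 0.65 and 0.59 in those without. They also included Dtx3, Aldh18a1, Inpp5j, Apex2 and Ikbkg, with differences between cultures of 0.96 to 1.34 in size.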

How the data were processed

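Transcripts were measured on 8 single-colour Affymetrix arrays. The deposited table holds 1 linear signal intensity per probe set and array, scaled by the authors. The mean of each column, leaving out 2% of probe sets at each end, is 500. GCRMA is named in the submitters' processing notes without a version, and what it was used for is not stated there. No detection value was used, and the number of arrays limits the precision. Of 45101 probe sets 64 controls were left out, and 14892 with a mean log2 of at least 8 over the 8 arrays were tested, of which 13638 have 1 gene symbol in the platform annotation, 458 several and 796 none listed here.

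log2 intensities were fitted with limma 3.58.1 in R 4.3.3 (lmFit and eBayes) with group and array set as terms, which leaves 3 residual degrees of freedom, or 2 with an interaction term. P-values were adjusted over all 14892 by the Benjamini-Hochberg method. SE are from these fits. Gene lists used 1 probe set per gene, that of highest mean, over 8365 genes, and were described by counts and medians without a set test. The script was tested on simulated data.

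Named genes were the called probe sets of 1 gene with 4 differences of 1 sign, the 15 of largest mean difference each way; for the comparisons between genotypes and LIF conditions the 5 called of largest difference or else the 3 of smallest p each way; in each list up to 4 called members of largest change in the direction of its median and then members by mean level, with Zfp42 and Actb always named. Called members against the direction of a list were named where few, and they, other list members outside this rule and the printed promoters were chosen after values were seen. One called list member is not reported here. The members and lists were chosen with earlier results of these data known. Alternatives covered normalization, pseudocount, filter, variance prior, threshold, the probe set per gene and leaving out each pair. Python 3.11.15 and matplotlib 3.10.9 made the figures.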

Additional observations from a re-analysis of the deposited data

Results flagged for a closer look

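Among 69 sets of 4 pair differences looked at, 6 had 1 pair far from the other 3 by Dixon's criterion, and chance gives about 1 in 20. Rnf128 had a difference of -2.75 in the J1 pair with LIF against -1.66 to -1.50 in the others. Marcks had -0.97 in the knockout-labelled pair without LIF against -2.01 to -1.85. The median of the myosins and contractile regulators was -0.14 in the J1 pair without LIF. The control probe sets for the 3′ ends of Actb and Gapdh differed by 0.93 and 0.73 in the J1 pair with LIF, above the other 3 pairs. The median signal was higher by 27.5 in the knockout-labelled pair with LIF, against 6.92 to 8.94.

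By the test of the difference itself, 2 probe sets had an array-set difference unlike in the 2 cell lines. They were Krt8 at its probe set of highest signal (2.95, limma adjusted p = 0.0286) and Thbs1 (2.74), signed knockout-labelled minus J1. Both were smaller in size in the knockout-labelled cells in 2 of 2 pairs. The second arrays of Thbs1 all lay below a log2 signal of 8, so its test carries no weight.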

How the results depend on the processing

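Limits: the 4 pairs leave 3 residual degrees of freedom and the letter r in the titles is unexplained. The arrays give 1 intensity per probe set, so weak signals cannot be told from background. Groups and array set were both in the fit, which is the pairing within groups, and without the replicate block of groups limma called 882 higher and 1132 lower.

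Leaving out each pair gave 0 to 608 called higher and 0 to 979 called lower, and 321 to 1354 and 313 to 1717 with a variance prior that follows signal, an alternative chosen after seeing the data. Higher and lower counts were 1386 and 1592 with that prior on all pairs, 1415 and 1605 when it was also robust, 1863 and 2105 at an adjusted p under 0.1, 810 and 905 with quantile normalization, 1194 and 909 with median centring, and 1034 and 883 of 6516 with a mean log2 of at least 10. With a log2 of at least 4 in at least 2 arrays limma called 0 of 43439, with 6298 at an unadjusted p under 0.05. Of the 1837 called, 1836 kept their sign under quantile normalization. Requiring at least 1 log2 unit in every pair left 3 higher and 21 lower.

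Between genotypes limma called 0 with quantile normalization (2002 unadjusted) and 0 with the log2 of 4 filter (3171 unadjusted), 5 positive with 16 added to each value, 6 at an adjusted p under 0.1, 36 positive and 30 negative at a mean log2 of at least 10, 94 and 50 with the prior that follows signal, and 93 and 51 when robust.

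The following medians moved by more than the SD of the pair medians. With quantile normalization they were -0.33 for crosslinkers, -0.27 for FGF and ERK genes, 0.11 for the respiratory chain, 0.16 for the proteasome and, with the sign turned, -0.017 for ribosomal proteins. With median centring they were -0.32, -0.26 and 0.24 for crosslinkers, FGF and ERK genes and the proteasome. At a mean log2 of at least 10 they were 0.046 for actin isoforms, with the sign turned, -0.26 for focal adhesions, -0.12 for cadherins, -0.015 for microtubules and intermediate filaments, -0.81 for TGF-beta targets and -0.35 for immediate early genes. With the mean over a gene's probe sets they were -0.48 for immediate early genes, -0.15 for FGF and ERK genes and 0.14 for the proteasome. Leaving out each pair gave -0.42 to -0.34 for crosslinkers, -0.31 to -0.17 for myosins, -0.22 to -0.090 for microtubules and intermediate filaments, -0.69 to -0.45 for immediate early genes, -0.35 to -0.26 for FGF and ERK genes and 0.11 to 0.18 for cholesterol synthesis. Further medians moved by over 1.5 times but within that SD. Without the J1 pair with LIF they were 0.05 for core pluripotency, 0.19 for ribosomal proteins, 0.05 for DNA repair, 0.07 for replication, -0.10 for chromatin and -0.03 for actin isoforms. Without the J1 pair lacking LIF the naive factors were at -0.07 and microtubules at -0.10. Without the knockout-labelled pair with LIF extracellular matrix was at -0.37, core pluripotency at 0.16, DNA repair at 0.15 and chromatin at -0.014, and without the one lacking LIF DNA repair was at 0.15 and chromatin at -0.03. Extracellular matrix was at -0.06 at a mean log2 of at least 10, mitosis at 0.14 with probe sets averaged, core pluripotency at 0.05, chromatin at -0.04 and actin isoforms at -0.08 with quantile normalization, and DNA repair at 0.12, chromatin at -0.018 and actin isoforms at -0.0016 with median centring. Zfp42 turned to -0.11 with quantile normalization. The causes were not tested.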

Other observations

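The following families were singled out after their values were seen, so their counts support no statement beyond the genes named. Annexins, which bind membranes when calcium rises, were called lower on the second arrays at 4 of the 7 measured genes and higher at 0. Besides Anxa1 and Anxa3 these were Anxa5 (-1.55, SE 0.34) and Anxa2 (-1.26, SE 0.30), and the 2 values of Anxa6 were -0.13 and -0.07. Anxa5 went from 10.07 to 7.82 and 10.14 to 7.68 in the J1 pairs and from 8.80 to 7.76 and 8.35 to 7.92 in the knockout-labelled pairs. Its second arrays all lay below the filter of 8, so its call carries no weight as a test. S100a10, the partner of Anxa2 in a heterotetramer, differed by -1.14 (SE 0.13, limma adjusted p = 0.0156) at its brighter probe set and had a value of -0.62 (SE 0.25) at the other, which was not called.

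Id1, Id2 and Id3, inhibitors of helix-loop-helix factors that BMP signalling induces, were each called higher at 1 probe set. Id1 went from 11.99 to 12.68, 11.73 to 12.36, 11.66 to 12.54 and 11.39 to 12.31 (0.78, SE 0.09, limma adjusted p = 0.0156), with the pairs in the order J1 with LIF, J1 without, knockout-labelled with and without. Id3 differed by 0.64 (SE 0.09). Smad6, another BMP target, was called lower, and the median of the 9 measured BMP targets was 0.10. The noncoding RNAs Meg3, Rian and Mirg, which are expressed from the maternal copy of the imprinted Dlk1 region, were called higher at 6 of their 10 probe sets. Rian was called at all 3 of its probe sets, at 0.55 to 0.72. Meg3 was called at 2 of 5, at 0.53 (SE 0.12) and 0.71 (SE 0.16), and had values of -0.15 to 0.32 at the others. At the called Meg3 probe set of higher signal the difference was 0.78 and 0.76 in the J1 pairs and 0.25 and 0.35 in the knockout-labelled pairs.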
